A study of Mus musculus with 24 samples.

Results

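Normal development of the mouse cortex between E11.5 and E14.5 (E, embryonic day) was read from the control cortices of a Cep135 series. The 6 libraries were chosen by their labels, 3 from E14.5 and 3 from E11.5, out of 24 in the series. Every one came from the dorsal telencephalon of a single Cep135 (+/+) embryo that had received no drug, and no embryo was pooled with another. The remaining libraries came from Cep135 mutants, labelled null, or from cultured neurospheres. Transcripts were counted by QuantSeq, an assay that reads only the 3′ end of polyadenylated RNA.

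The wall of the early cortex is made of apical progenitors, radial glia that divide at the ventricle and first multiply and then give rise to neurons. Many neurons arise through intermediate progenitors, which carry the transcription factor Eomes and divide away from the ventricle. The first neurons form the preplate and the deep layers, later ones the upper layers, and glia follow. Progenitors change their competence as they age, so a gene can differ between the 2 stages because cells of one kind became more common or because the same kind of cell changed. In these bulk samples, more or fewer cells of a type and more or less RNA per cell cannot be told apart.

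The 6 control libraries held 6048513 to 9647570 reads on genes, with no separation of the stages by depth. Values below are normalized counts, that is, reads divided by 1 size factor for each library, and are listed for embryos 1, 2 and 3 at E11.5 and for embryos 3, 4 and 5 at E14.5. Haemoglobin transcripts made up 0.773 to 1.18% of reads at E11.5 and 0.537 to 0.647% at E14.5. Xist and Y-linked transcripts marked E11.5 embryo 2 as female and the other 5 embryos as male. The titles carry the prefix TBI180 for all E14.5 embryos, TBI189 for E11.5 embryo 1 and TC48 for E11.5 embryos 2 and 3, so the stage and whatever these prefixes mark cannot be told apart.

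Cep135, the centriole gene that the series targets, was present in every control. It stood at 293, 375 and 318 normalized counts at E11.5 and at 171, 176 and 271 at E14.5, and fell by 0.70 on the log2 scale (limma adjusted p = 0.0176). That call was lost without E11.5 embryo 2 (-0.60), E14.5 embryo 3 (-0.58) or E14.5 embryo 4 (-0.60).

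The label of dorsal telencephalon was checked against its markers. Emx1, which marks the dorsal cortex, measured 177, 136 and 168 at E11.5 and 299, 327 and 195 at E14.5, and Pax6, described with the progenitors, was present in every library. Genes of the ventral telencephalon, described below, were present in every library too. Their list summed to 4171 to 4827 at E11.5 and 6899 to 7915 at E14.5. Whether ventral tissue entered the dissections was not tested. Of 18 midbrain, hindbrain and spinal cord genes, only Hoxa2, Hoxb2, Hoxb8 and Hoxd3 were at 0 in all 6 libraries. Summed over all 18, the counts were 113, 118 and 36.5 at E11.5 and 15.3, 21.1 and 18.3 at E14.5. En1, a midbrain and hindbrain factor chosen after its values were seen, stood at 74.6, 83.6 and 0 at E11.5 and at 0, 0 and 0.872 at E14.5, a difference that missed the threshold (limma adjusted p = 0.0645) and passed it without E11.5 embryo 3. E11.5 embryos 1 and 2 therefore held a transcript that E11.5 embryo 3 lacked, and the same 2 libraries were high in mesenchyme genes, described with the other cell types below.

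The stages were far apart in the transcriptome as a whole. Of 13605 genes with a mean of at least 10 normalized counts, 2492 were higher at E14.5 and 2561 were lower, using limma on log2(normalized count + 1) and a p adjusted by Benjamini-Hochberg under 0.05. That is 37.1% of the genes tested, 18.3% higher and 18.8% lower, and the groups did not overlap for 49.3%. The counts of each gene list below are to be read beside these shares. Fold changes on this scale understate the change of genes near 0. Gene lists are counted over the members that reached the mean of 10, and between 0 and 5 members of a list fell under it, except for the midbrain, hindbrain and spinal cord list, of which 17 of 18 did. The median log2 fold change over all genes tested was -0.08. Large differences were mostly gains. At a log2 fold change of at least 3, 176 genes were higher and 58 lower, and at 5 or more the counts were 10 and 4. The Euclidean distance between libraries on the log2 scale was 54.4 to 73.9 within a stage and 112 to 131 between stages.

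**Figure D1:**
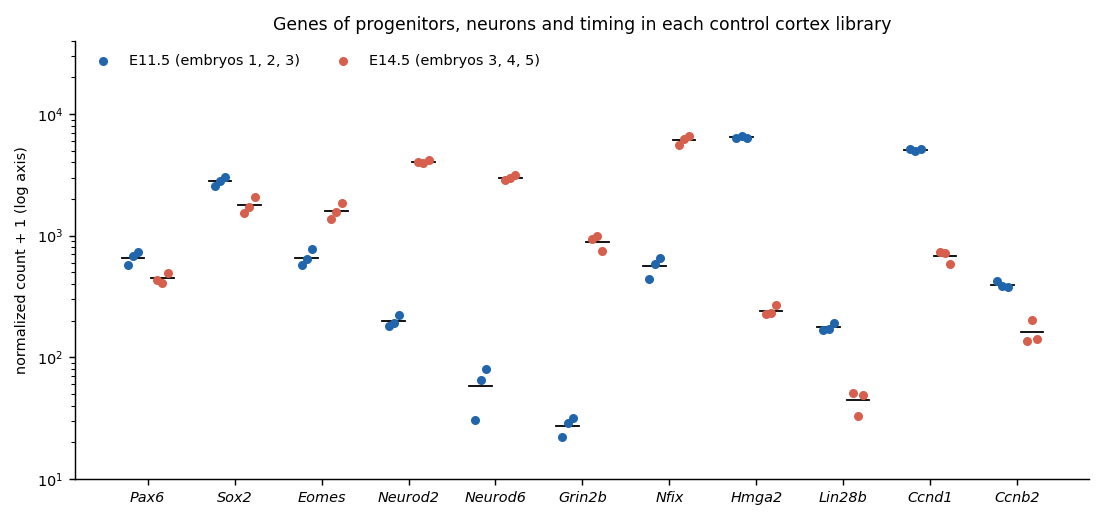
Normalized counts (plus 1, log axis) of 11 genes in each control cortex library, with E11.5 in blue, E14.5 in red and a black line at the mean of the 3 embryos. For each of the 11 genes the 3 libraries of one stage lie wholly above or below those of the other, from Neurod2 (179 to 222 against 3959 to 4156) to Pax6 (569 to 730 against 409 to 494). The 11 genes were picked from the named genes, and over all genes tested the groups did not overlap for 49.3%.

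Most neuronal genes were higher at E14.5. Of 24 postmitotic neuron genes, 22 were higher at E14.5, none was lower, and the median log2 fold change was 1.62. Neurod2, a transcription factor of cortical excitatory neurons on chr11:98325415-98329648 (minus strand, GRCm38), measured 179, 190 and 222 at E11.5 and 4021, 3959 and 4156 at E14.5. It rose 20.5-fold, by 4.36 ± 0.12 (SE) on the log2 scale (limma adjusted p = 4.66e-08), with every E14.5 library above every E11.5 library. Its relative Neurod6 went from 29.2, 63.6 and 78.5 to 2863, 2948 and 3126, a log2 change of 5.79 ± 0.29 (limma adjusted p = 1.36e-06). Bhlhe22, a factor of postmitotic projection neurons, rose by 3.97 on the log2 scale. Genes of the neuronal cytoskeleton were among them. Mapt, which encodes the microtubule protein tau, rose by 3.33, Dcx, encoding doublecortin of migrating neurons, by 1.91, and the neuronal tubulin Tubb3 by 1.30 (limma adjusted p = 1.26e-06, 7.03e-06 and 0.00107).

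Receptors for fast transmitters rose almost as a block. Of 28 glutamate and GABA receptor genes tested, 27 were higher, none was lower, and the median was 2.45, the highest of any neuronal list. Grm5, the metabotropic receptor mGluR5, measured 4.03, 1.67 and 4.66 at E11.5 and 300, 314 and 202 at E14.5. This was the largest increase on the log2 scale among all genes tested, 5.98 ± 0.33 (limma adjusted p = 2.28e-06). Grin2b, the NMDA receptor subunit typical of fetal brain, went from 21.2, 27.6 and 30.3 to 935, 992 and 738, a log2 change of 5.03 ± 0.18 (limma adjusted p = 4.77e-07). The AMPA receptor subunits Gria1 and Gria2 rose by 3.68 and 2.69, and the GABA-B subunit Gabbr2 by 3.76. The groups did not overlap for 27 of the 28 receptor genes tested, these 5 among them, against 49.3% of all genes tested.

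Presynaptic genes followed, with 23 of 26 higher, none lower and a median of 1.65. Sncb, encoding beta-synuclein, measured 4.03, 9.20 and 10.1 and then 207, 224 and 209. Syn2 (synapsin II), Syt4 (a synaptotagmin) and Cplx1 (complexin 1, a clamp of vesicle fusion) rose by 3.70, 3.55 and 3.05 on the log2 scale. Snap25 and Syt1, core parts of the release machinery, rose by 1.91 and 2.06. All 6 passed the threshold, with limma adjusted p between 1.96e-06 and 6.66e-05.

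Ion channels and transporters gave 21 of 23 higher and none lower, with a median of 1.80. Kcnq3, a subunit of the M-current potassium channel, rose from 61.5, 46.8 and 65.3 to 454, 536 and 547 (log2 change 3.13, limma adjusted p = 1.78e-06). Kcnj3 (a GIRK channel subunit), Cacna1e (a calcium channel) and Scn3b (a sodium channel accessory subunit) rose by 3.88, 3.04 and 2.71. The pair of chloride carriers that sets the sign of the GABA response parted. Slc12a5, the exporter KCC2, measured 27.2, 18.4 and 18.7 and then 97.6, 75.5 and 52.3 (log2 change 1.74, limma adjusted p = 0.00119). Slc12a2, the importer NKCC1, measured 491, 400 and 567 and then 493, 500 and 613, with a log2 change of 0.15 and an interval that included 0 (limma adjusted p = 0.485). Whether the 2 carriers differed from each other in their change was not tested.

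Of 38 genes of axon growth, guidance and adhesion, 29 were higher and 3 lower, with a median of 1.17. The adhesion genes Chl1, Opcml and Cntn1 rose by 3.51, 3.31 and 3.22 on the log2 scale, and the netrin receptor Unc5d by 3.77. Robo2, a receptor for Slit, rose from 203, 253 and 197 to 1018, 883 and 921. The 3 lower members were Efna5, an ephrin (-1.21), Cntnap2, a neurexin-like adhesion protein (-0.77), and Ephb2, an Eph receptor (-0.47), with limma adjusted p of 0.00239, 0.00163 and 0.00886. Nav3, Cdh13, Epha5 and Elmod1, which were among the 10 higher genes with the smallest p, also changed 2.83 to 4.10 on the log2 scale. Elmod1 measured 18.1, 20.1 and 21.8 at E11.5 and 353, 359 and 362 at E14.5.

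**Figure D2:**
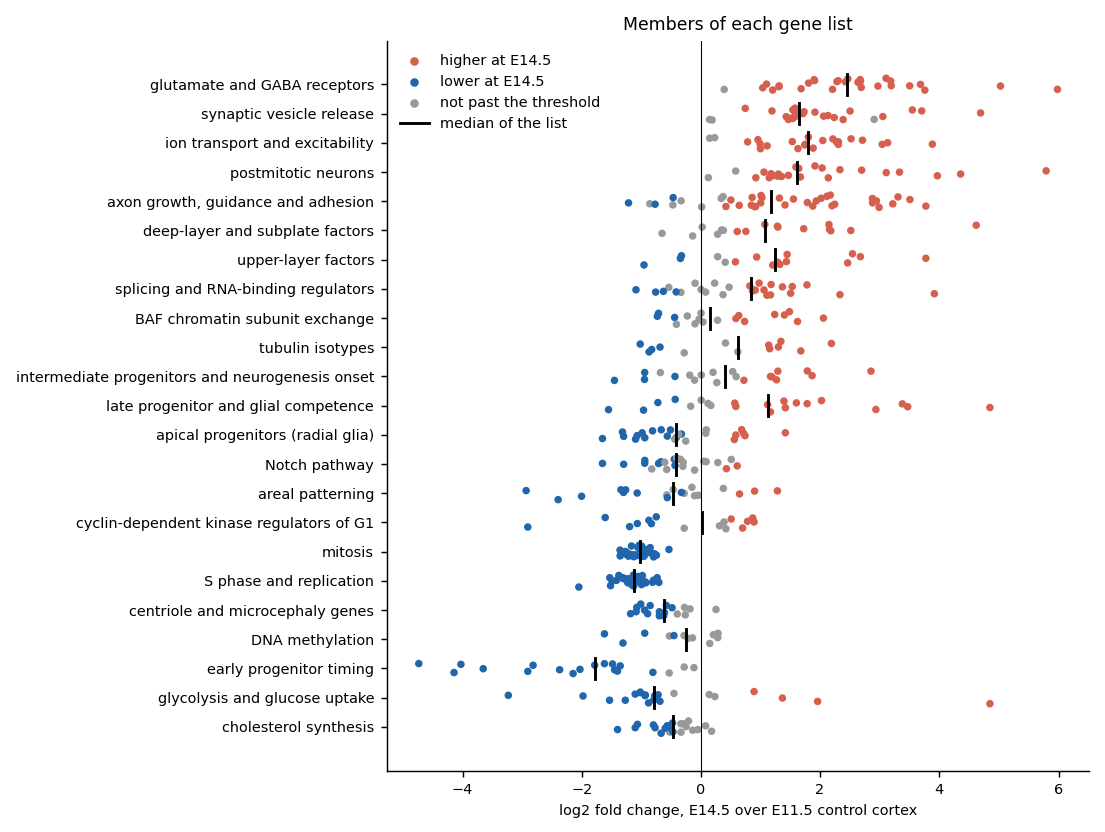
Log2 fold change of E14.5 over E11.5 for the tested members of 23 gene lists, with members higher at E14.5 in red, members lower at E14.5 in blue, those not past the threshold in grey and a black bar at the list's median. Receptor, synapse and channel genes lie almost wholly to the right of 0, the 34 mitosis and 30 S phase genes lie wholly to the left, and the radial glia and G1 lists straddle 0.

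Markers of both deep and upper layers were already higher at E14.5. The deep-layer and subplate list had 11 of 17 members higher and none lower (median 1.07). Bcl11b, the subcerebral neuron factor Ctip2, measured 1292, 1160 and 1264 and then 6950, 7631 and 6684, a log2 change of 2.52 ± 0.11 (limma adjusted p = 7.70e-07). Hs3st4, a sulfotransferase gene of deep neurons, rose by 4.62, Lmo3 by 2.18 and Tbr1, the factor of layer 6 neurons, by 1.29. Without E11.5 embryo 3, E14.5 embryo 3 or E14.5 embryo 5, 1 member of this list was called lower.

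The upper-layer list had 11 of 16 higher and 3 lower (median 1.25). Mef2c, a transcription factor of cortical neurons, went from 266, 310 and 256 to 1448, 1540 and 1602 (log2 change 2.46, limma adjusted p = 1.13e-06), and Dok5 rose by 2.54. Dtx4 fell by 0.95 on the log2 scale (limma adjusted p = 0.00315). The other 2 lower members, Cux1 and Lhx2, had changes of -0.34 and -0.33. The count of lower members went from 3 to 1 without E11.5 embryo 1, E11.5 embryo 3 or E14.5 embryo 3.

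Cajal-Retzius cells are the earliest neurons, lie at the surface and secrete reelin. Their list did not move as one. Of 16 genes, 5 were higher and 8 lower. Reln itself rose from 63.5, 82.8 and 93.3 to 399, 412 and 365, a log2 change of 2.30 (limma adjusted p = 9.56e-06). Ebf2, Lhx5 and Barhl2, transcription factors of these cells, fell by 1.99, 1.70 and 2.13 on the log2 scale, and Lmx1a, a factor of the cortical hem from which many of them come, fell by 1.59. Trp73, another of their markers, measured 33.3, 27.6 and 45.9 and then 38.8, 47.2 and 30.5, and the groups overlapped (log2 change 0.13, limma adjusted p = 0.737). The number higher was 3 instead of 5 without E11.5 embryo 2, E14.5 embryo 3 or E14.5 embryo 4.

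Apical progenitor genes were lower at E14.5 more often than higher, 13 against 6 of 24, and by small amounts (median -0.43). That is 54.2% lower and 25.0% higher, against 18.8% and 18.3% of all genes tested. Sox2 measured 2557, 2821 and 3035 and then 1528, 1719 and 2086, a log2 change of -0.67 ± 0.14 (limma adjusted p = 0.00411). Pax6, the dorsal progenitor factor, measured 569, 676 and 730 and then 429, 409 and 494 (-0.56 ± 0.13, limma adjusted p = 0.00906). Vim, the intermediate filament of radial glia, fell by 1.10 and Prom1, a protein of the apical membrane, by 1.32. Some members went the other way. Slc1a3, the glutamate transporter GLAST that marks maturing radial glia, rose from 363, 290 and 334 to 845, 854 and 935 (log2 change 1.42, limma adjusted p = 2.80e-05), and Ddah1 and Mfge8 rose by 0.72 and 0.68.

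Notch signalling keeps progenitors undifferentiated. Of 24 Notch pathway genes, 9 were lower (37.5%, against 18.8% of all genes tested) and 2 higher (8.33%, against 18.3%), with a median of -0.42. The number lower was 5 without E11.5 embryo 3 or E14.5 embryo 4. The number higher was 0 without E11.5 embryo 1, E11.5 embryo 2 or E14.5 embryo 4 and 1 without any of the other 3 libraries. Among receptors, Notch3 fell from 297, 293 and 323 to 96.5, 105 and 87.2 (log2 change -1.65, limma adjusted p = 2.26e-05), whereas Notch2 measured 121, 141 and 117 and then 145, 131 and 126 (0.09, limma adjusted p = 0.678). The ligand gene Dll1 changed by -0.94. The effectors Hes5 and Hes1 changed by -1.30 and -0.94 (limma adjusted p = 0.000235 and 0.00128).

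Intermediate progenitor genes leaned the other way, with 8 of 20 higher, 4 lower and a median of 0.40. Eomes measured 569, 637 and 770 and then 1366, 1560 and 1840, a log2 change of 1.27 ± 0.15 (limma adjusted p = 0.000171). Sstr2, a somatostatin receptor of these cells, rose by 2.85, Rhbdl3 by 1.87 and Pcdh8 by 1.79. Gadd45a and Dll1 were lower, by 1.45 and 0.94 in size. Neurog1 and Mfng were lower too, with changes of -0.95 and -0.44. The list also holds Tbr1, described with the deep layers above. The number lower was 2 instead of 4 without E11.5 embryo 1 or E11.5 embryo 3.

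Genes that time early progenitors fell as a group. These include the RNA-binding proteins Lin28a and Lin28b, which block maturation of the microRNA let-7, and transcripts that let-7 is known to repress. Of 19 members, 16 were lower, none was higher, and the median was -1.78. Hmga2, a chromatin protein that keeps young stem cells dividing, measured 6296, 6581 and 6339 at E11.5 and 225, 230 and 267 at E14.5. Its log2 change of -4.73 ± 0.11 had the smallest adjusted p of all genes (limma adjusted p = 2.52e-08). Lin28b went from 167, 170 and 191 to 49.4, 31.9 and 47.9 (log2 change -2.03, limma adjusted p = 6.15e-05). Lin28a measured 10.1, 27.6 and 28.8 at E11.5 and at E14.5 was seen as 1 read in embryo 3 (1.18) and none in embryos 4 and 5 (limma adjusted p = 0.00149). Trim71, a ubiquitin ligase that is itself a textbook let-7 target, fell by 3.65, and Igf2bp1, an mRNA-binding protein, by 2.14 on the log2 scale. Crabp2, a retinoic acid carrier, went from 603, 488 and 457 to 36.5, 36.3 and 16.6 (-4.14, limma adjusted p = 6.76e-06).

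The let-7 sequences are shown because most of these early genes carry their seed match. QuantSeq does not capture mature microRNAs, so let-7 itself was not measured. RefSeq (GRCm38.p6) holds 11 mouse let-7 and miR-98 sequences that derive from the main arm, and 10 of them share bases 2 to 8, the seed, given here in capitals.
let-7a-5p: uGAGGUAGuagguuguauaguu
let-7b-5p: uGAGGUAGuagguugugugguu
let-7i-5p: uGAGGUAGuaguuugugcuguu
miR-98-5p: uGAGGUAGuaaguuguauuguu
The exception was let-7j, in which the seed ends differently.
let-7j: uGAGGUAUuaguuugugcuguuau

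The complement of the shared seed, CTACCTC, was searched on the sense strand of the longest annotated 3′ UTR (GENCODE vM21) of each gene. It occurred in 13 of the 19 early timing genes and in 1335 of 12075 genes tested that have a 3′ UTR (11.1%). Of the 13, 12 were lower at E14.5. The list was drawn up partly from known let-7 targets, so its high share describes the list and is no independent result. Sites are printed with the match in capitals, and an A after the 7 bases is capitalized too, since that base strengthens a site.
Hmga2, chr10:120364213-120364242, minus strand: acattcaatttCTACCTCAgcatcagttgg
Lin28b, chr10:45381011-45381040, minus strand: gggcgggaagtCTACCTCAtgcaagcacag
Trim71, chr9:114512461-114512490, minus strand: ttgcctaagtcCTACCTCAgcttaaatttt
Igf2bp1, chr11:95961767-95961796, minus strand: tgcgaagtaaaCTACCTCAaggtgtgaagt
Prtg, chr9:72912562-72912591, plus strand: ctgctgaatagCTACCTCAgtttgctgtgg
Each of Hmga2, Lin28b, Trim71 and Igf2bp1 held 4 matches and Prtg 2. Igdcc3, one of the 10 lower genes with the smallest p, held 2 and went from 905, 824 and 867 to 181, 155 and 131 (log2 change -2.48, limma adjusted p = 2.48e-06). Nr6a1 held 8 matches but its change of -0.53 did not pass the threshold (limma adjusted p = 0.179).

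**Figure D3:**
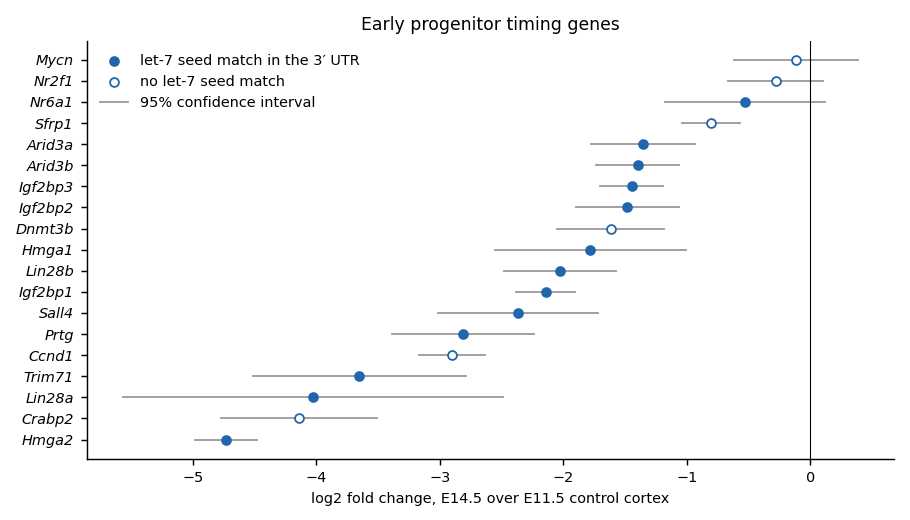
Log2 fold change of E14.5 over E11.5 for the 19 early progenitor timing genes, with lines for 95% confidence intervals from limma, filled points for genes with a let-7 seed match in the 3′ UTR and open points for genes without one. The intervals of 16 genes lie wholly below 0, and those of Mycn, Nr2f1 and Nr6a1 include 0.

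Over all genes, carrying 1 seed match or more went with more calls in both directions. Among genes with no match, 19.4% were lower and 19.3% higher, and among the 1335 with 1 or more, 23.4% were lower and 21.8% higher, with a median log2 fold change of -0.07 in both sets. With 2 or more matches, 50 of 165 genes were lower (30.3%) and 29 higher (17.6%), and the median log2 fold change was -0.17 against -0.07. These genes also had longer 3′ UTRs, a median of 3898 bases against 1193 without a match. Within UTRs of 1000 bases to under 3000, 25.0% of genes with a match and 18.4% without one were lower. In that band 19.6% with a match and 21.5% without one were higher, so the excess in both directions was not seen there. Seed matches of other microRNAs gave other patterns. For miR-9-5p (ACCAAAG), 20.3% of 1797 genes with a match were lower and 24.0% higher, against 19.7% and 18.8% without one. Within the same band of UTR length, 21.2% were higher with a match and 21.2% without, and 20.6% and 18.9% were lower. For miR-92a-3p (GTGCAAT), 14.8% of 1010 genes with a match were lower and 31.9% higher, against 20.3% and 18.5% without one. Within the band, 14.7% were lower and 28.1% higher with a match, against 19.6% and 20.6% without. The searches were chosen after values were seen and are descriptions without a test.

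Late progenitor and glial competence genes were mostly higher, 13 of 21, with 4 lower and a median of 1.12. They included the nuclear factor I genes, which drive radial glia toward later fates. Nfix measured 439, 580 and 658 and then 5533, 6268 and 6607 (log2 change 3.47, limma adjusted p = 7.70e-07). Nfib went from 1650, 1577 and 1774 to 12022, 13352 and 12911 (2.94 ± 0.11, limma adjusted p = 5.23e-07) and Nfia from 1518, 1658 and 1682 to 5933, 6478 and 7404 (2.02, limma adjusted p = 3.07e-06). All E14.5 libraries lay above all E11.5 libraries for the 3 genes. Aldoc, an aldolase of radial glia and astrocytes, rose by 4.85, from 38.3, 33.5 and 50.5 to 1018, 1270 and 1290. Tnc, encoding an extracellular matrix glycoprotein, had a size of change that depended on E11.5 embryo 3. It measured 29.2, 45.2 and 0.777 and then 140, 155 and 126, and its log2 change of 3.38 (limma adjusted p = 0.0209) was lost without E14.5 embryo 3 (3.38) or E14.5 embryo 4 (3.31) and was 1.92 without E11.5 embryo 3. Olig2 and Sox9, also on this list, fell by 1.55 and 0.72. The number lower was 2 instead of 4 without E11.5 embryo 2, E14.5 embryo 3 or E14.5 embryo 4.

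Genes of the dividing cell fell together, and the medians of their 2 lists were close. All 30 S phase genes tested and all 34 mitosis genes tested were lower at E14.5, with medians of -1.12 and -1.02. Pcna, the polymerase clamp, measured 642, 687 and 607 and then 239, 282 and 168 (log2 change -1.52, limma adjusted p = 0.000172). Rrm2, a subunit of the enzyme that makes deoxynucleotides, fell by 2.05 and Mcm3, of the replicative helicase, by 1.30. Among mitosis genes, Ccnb2 (cyclin B2) went from 419, 383 and 374 to 135, 202 and 140 (-1.32, limma adjusted p = 0.000269). Bub1, of the spindle checkpoint, and Kif20a, a kinesin of cytokinesis, each changed by -1.36. Members changed between -1.36 and -0.54 in mitosis and between -2.05 and -0.70 in S phase. Without any one library, the number lower stayed at 30 for S phase and was 32 to 34 for mitosis. Summed over the list, mitosis genes fell from 44410 to 48537 normalized counts at E11.5 to 22065 to 26563 at E14.5, a ratio of 0.503 between the means.

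Promoters are shown for one gene of each group, because the 2 sets fell together and their promoters are known to differ. RefSeq windows of 300 bases (250 before the start and 50 after, GRCm38.p6) were found for 9955 of the genes tested. Both strands were searched for CCAAT, the box bound by NF-Y, and for TTTGAA, the core of the cell cycle homology region. Neither motif contains the other. Both were present in 23 of 31 windows of 29 mitosis genes (74.2%) and in 2 of 25 windows of 23 S phase genes. Among all 12822 windows, 4.72% held both. CCAAT, with or without TTTGAA, was present in 27 of 31 mitosis windows, 17 of 25 S phase windows and 37.9% of all windows. TTTGAA, with or without CCAAT, was present in 24 of 31 mitosis windows, 2 of 25 S phase windows and 11.6% of all windows. CCAAT was therefore common in both sets, and TTTGAA only in the mitosis set. The Ccnb2 window, chr9:70421505-70421804 on the minus strand, held 3 CCAAT and 2 TTTGAA, in capitals.
Ccnb2: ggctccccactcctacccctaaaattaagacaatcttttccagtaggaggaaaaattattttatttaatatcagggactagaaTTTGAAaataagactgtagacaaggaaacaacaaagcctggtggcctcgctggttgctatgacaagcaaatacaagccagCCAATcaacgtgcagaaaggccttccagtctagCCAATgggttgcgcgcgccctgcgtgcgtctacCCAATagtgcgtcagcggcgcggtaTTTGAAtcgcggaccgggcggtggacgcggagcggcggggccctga
E2F-type sites, searched as TTTGGCGC, TTTCCCGC and TTTCGCGC, were present in 10 of 25 S phase windows (40.0%), in 1 of 31 mitosis windows (3.23%) and in 3.44% of all windows. The Mcm3 window, chr1:20820263-20820562 on the minus strand, held 1 TTTGGCGC and 1 TTTCCCGC, in capitals.
Mcm3: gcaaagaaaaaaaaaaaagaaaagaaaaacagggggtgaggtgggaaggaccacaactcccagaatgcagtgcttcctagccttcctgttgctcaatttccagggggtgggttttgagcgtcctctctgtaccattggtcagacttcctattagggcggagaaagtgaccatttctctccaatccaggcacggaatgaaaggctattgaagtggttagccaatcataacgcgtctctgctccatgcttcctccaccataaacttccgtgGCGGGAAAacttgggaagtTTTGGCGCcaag
A match is a description of the letters in the window and was not tested as a binding site.

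Regulators of the G1 phase went both ways, 5 of 16 higher and 7 lower, with a median of 0.02. Ccnd1, the cyclin D1 of early progenitors, measured 5154, 4991 and 5137 at E11.5 and 738, 724 and 588 at E14.5, a log2 change of -2.90 ± 0.12 (limma adjusted p = 6.31e-07). Ccnd3 fell by 1.61 on the log2 scale. Ccnd2, the cyclin D2 of radial glia, measured 22589, 23146 and 26047 and then 28918, 29958 and 35233. Its groups did not overlap, but its change of 0.39 missed the threshold (limma adjusted p = 0.0661). The inhibitors parted as well. Cdkn1b, encoding p27, rose by 0.70 (limma adjusted p = 0.000843), Cdkn1c, encoding p57, fell by 1.07 (limma adjusted p = 0.000564), and Cdkn1a, encoding p21, changed by 0.42 without passing (limma adjusted p = 0.206). The number higher was 3 without E11.5 embryo 2, E14.5 embryo 3 or E14.5 embryo 4.

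Genes of centriole duplication and of primary microcephaly also fell, 14 of 19 with none higher and a median of -0.63. Plk4, the kinase that starts centriole duplication, went from 345, 314 and 326 to 174, 155 and 135 (log2 change -1.09, limma adjusted p = 0.000271). Stil, Cit and Mcph1, whose human counterparts are microcephaly genes, fell by 1.18, 1.08 and 1.01. Cep135, given above, belongs to this list.

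Regulators of splicing rose more often than they fell, 14 against 4 of 26, with a median of 0.84. These are 53.8% and 15.4%, against 18.3% and 18.8% of all genes tested. Rbfox1 and Rbfox3, splicing factors of maturing neurons, rose from 30.2, 58.5 and 46.6 to 696, 605 and 722 (log2 change 3.92, limma adjusted p = 2.40e-06) and by 2.33. Celf4 and Celf2 rose by 1.78 and 1.53. Ptbp1, which represses neuronal exons in progenitors, fell from 859, 1015 and 852 to 409, 404 and 464 (-1.09, limma adjusted p = 0.000124). Its neuronal counterpart Ptbp2 measured 1042, 1088 and 1363 and then 1440, 1357 and 1276, and the groups overlapped (0.23, limma adjusted p = 0.191). The number lower was 1 without E11.5 embryo 1 and 2 without E11.5 embryo 3.

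The BAF chromatin remodeller is known to swap subunits as progenitors become neurons. In these cortices the neuronal subunit Actl6b rose from 123, 104 and 142 to 676, 494 and 398 (log2 change 2.06, limma adjusted p = 5.59e-05), and its progenitor counterpart Actl6a fell from 1183, 976 and 1129 to 682, 677 and 642 (-0.71, limma adjusted p = 0.00107). Ss18l1, the neuronal CREST subunit, rose by 1.62 and the ATPase Smarca2 by 1.49. Over the 18 BAF genes, 8 were higher (44.4%) and 3 lower (16.7%), with a median of 0.16. Among all genes tested 18.3% were higher and 18.8% lower, so the share lower was near that of all genes. The 3 lower were Actl6a, Dpf2 and Ss18, of which Dpf2 and Ss18 were lost without E11.5 embryo 1 (-0.65 and -0.42) or E11.5 embryo 3 (-0.70 and -0.44). Dpf2 was lost also without E14.5 embryo 3 (-0.77) and Ss18 without E14.5 embryo 4 (-0.44).

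DNA methylation genes gave 4 of 12 lower and none higher (median -0.25). The share called, 33.3%, was near the 37.1% of all genes tested called in either direction, of which 18.8% were lower. Dnmt3b, a methyltransferase of early embryos, went from 89.7, 110 and 104 to 34.1, 34.1 and 28.8 (log2 change -1.62, limma adjusted p = 0.000175), and Uhrf1, which guides maintenance methylation at replication, fell by 1.31. Dnmt3a and Dnmt1 changed by -0.21 and -0.53 without passing (limma adjusted p = 0.121 and 0.0706). Without E14.5 embryo 5, 2 members were called higher.

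Genes of glycolysis were lower more often than higher. Of 22 genes of glycolysis and glucose uptake, 15 were lower and 4 higher, with a median of -0.78. Slc16a3, a lactate exporter, fell from 187, 221 and 207 to 17.6, 26.9 and 19.2 (log2 change -3.23, limma adjusted p = 4.74e-06). Ldha, a lactate dehydrogenase subunit, fell by 1.27. Among hexokinases, Hk2 fell by 1.53 and Hk1 rose by 0.89 (limma adjusted p = 0.000126 and 0.00352), with groups that did not overlap for either. The remaining higher members were Aldoc (4.85), Eno2, the enolase of neurons (1.96), and Pfkp (1.37). Pkm, a pyruvate kinase gene, spread widely at E11.5, at 2015, 9250 and 5398, and was 1067, 1161 and 1328 at E14.5. Its change of -1.98 ranged from -2.58 to -1.48 with any one library left out.

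Cholesterol synthesis genes were lower in 11 of 21 cases and never higher (median -0.48), and the number lower was 7 without E11.5 embryo 3. Idi1, an isomerase of the pathway, went from 151, 118 and 172 to 72.9, 79.1 and 52.3 (log2 change -1.10, limma adjusted p = 0.00293), and the groups did not overlap.

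Tubulin isotypes parted as well, with 6 of 13 higher and 4 lower. Tubb2a rose from 268, 267 and 261 to 1285, 1343 and 1037 (log2 change 2.19, limma adjusted p = 2.67e-06), and Tuba1a and Tubb2b, whose human counterparts are mutated in cortical malformations, rose by 1.14 and 1.34. Tuba1b, Tubb6 and Tubb4b fell by 0.83, 1.02 and 0.69. Tubulin genes are close in sequence, and how reads shared between copies were assigned could move these values.

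Several genes that pattern the cortex from its edges differed between the stages. Of 19 areal patterning genes tested, 9 were lower (47.4%) and 3 higher (15.8%), with a median of -0.46. Over all genes tested 18.8% were lower and 18.3% higher. Fgf15, made at the front of the forebrain, went from 334, 210 and 294 to 85.9, 98.0 and 36.6 (limma adjusted p = 0.00132), and Spry1, a target and inhibitor of FGF signalling, fell by 2.40. Bcl11a and Lmo4, on the same list and also made by neurons, rose by 1.28 and 0.65. The cortical hem and choroid plexus list had 8 of 15 lower (53.3%) and 2 higher (13.3%). Wnt8b, a hem ligand, measured 1077, 1407 and 1392 and then 133, 120 and 128 (-3.33 ± 0.14, limma adjusted p = 6.31e-07). Rspo1, an enhancer of Wnt signalling, fell by 2.96, Bmp4 by 2.65 and Otx2 by 2.08. Against them stood Ttr, the transthyretin gene of the choroid plexus, which rose from 66.5, 118 and 128 to 4899, 5083 and 3055 (5.39 ± 0.26, limma adjusted p = 1.16e-06). The second member called higher, Clic6, had a change of 0.86 and was lost without E11.5 embryo 1 (0.89), E11.5 embryo 2 (0.72), E14.5 embryo 3 (0.77) or E14.5 embryo 4 (0.71).

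Genes of the ventral telencephalon and of the interneurons it sends to the cortex were higher in 14 of 19 cases and lower in 1 (median 0.96), and the number lower was 0 without E11.5 embryo 1, E11.5 embryo 3, E14.5 embryo 4 or E14.5 embryo 5. Sst, encoding the neuropeptide somatostatin, went from 15.1, 13.4 and 35.0 to 600, 666 and 592 (log2 change 4.93, limma adjusted p = 3.77e-06). Npy rose by 2.94 and Gad1, which makes GABA, by 1.62. Dlx1, a ventral progenitor and interneuron factor, rose by 0.90, while Dlx2 measured 405, 261 and 329 and then 568, 569 and 222 and overlapped (0.35, limma adjusted p = 0.435). The summed level of the list was 4171 to 4827 at E11.5 and 6899 to 7915 at E14.5.

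**Figure D4:**
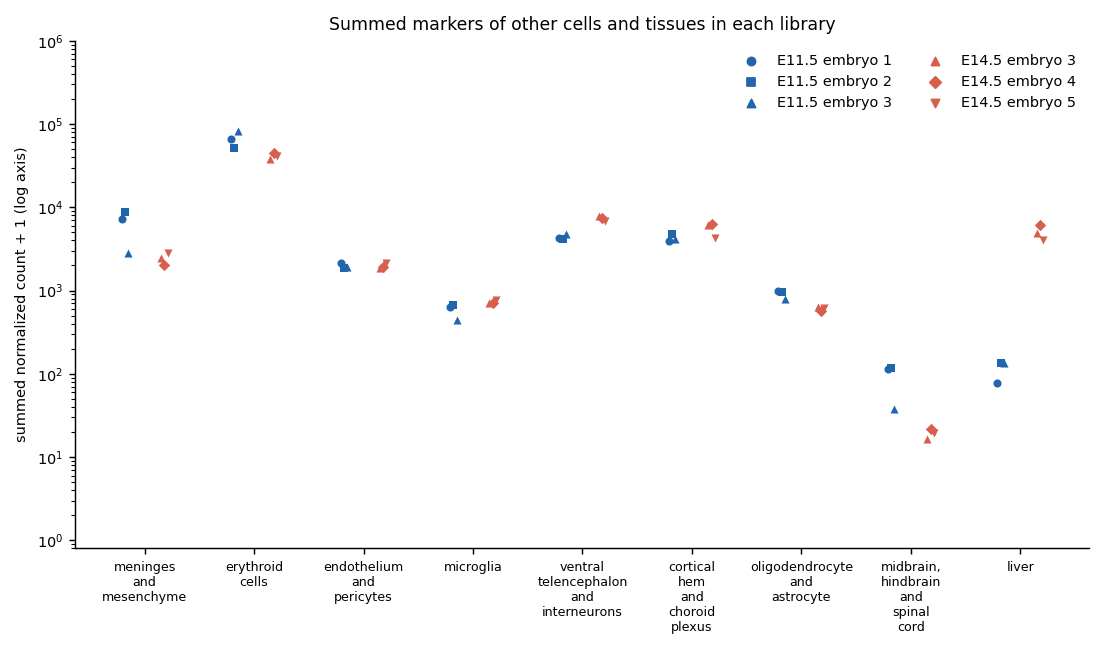
Summed normalized counts (plus 1, log axis) of marker genes of 9 other cell types and tissues in each control library, with E11.5 in blue, E14.5 in red and a symbol for each embryo. Mesenchyme markers of E11.5 embryo 3 (2805) lie near the E14.5 libraries (2041 to 2846) and far under E11.5 embryos 1 and 2 (7275 and 8772), and the liver sum, led by Ttr at E14.5, is higher in all 3 E14.5 libraries.

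Blood in the tissue changed its globins. Of 11 erythroid genes tested, 2 were higher and 7 lower. Hbb-bh1, an embryonic beta globin, fell from 4600, 2617 and 4563 to 18.8, 38.5 and 15.7, the most negative log2 change of all genes tested (-7.34 ± 0.32, limma adjusted p = 7.70e-07). Hba-x and Hbb-y, the other embryonic globins, fell by 3.98 and 2.84. The adult Hbb-bs rose from 593, 345 and 621 to 10514, 12836 and 8752 (4.39, limma adjusted p = 1.41e-06) and Hbb-bt by 1.27, although these 2 adult copies are nearly identical and reads may be split between them. Embryonic globins summed to 34225 to 55879 at E11.5 and 3892 to 5880 at E14.5, and adult globins to 16969 to 26542 and 34285 to 39951.

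Of 16 endothelial and pericyte genes, 2 were higher and 4 lower, a share near the 37.1% of all genes tested. Rgs5, a pericyte gene, rose by 2.40 (limma adjusted p = 7.60e-06) and Cldn5, of the blood-brain barrier, by 1.21 (limma adjusted p = 0.000953). The 4 lower members were Slc2a1 (-0.72), Flt1 (-0.59), Cdh5 (-0.58) and Emcn. The change of Emcn ranged from -1.31 to -0.62 with any one library left out. The number lower was 1 without E11.5 embryo 1, E14.5 embryo 3 or E14.5 embryo 4. Of 12 microglial genes, 1 was higher, Cx3cr1 with a log2 change of 0.46 (limma adjusted p = 0.0294), and this call was lost without any library except E11.5 embryo 2. Of 9 oligodendrocyte and astrocyte markers, 2 were higher (22.2%) and 3 lower (33.3%), against 18.3% and 18.8% of all genes tested. The number higher was 1 without E11.5 embryo 1, E11.5 embryo 3, E14.5 embryo 3 or E14.5 embryo 5. Aldh1l1 rose from 6.05, 3.35 and 2.33 to 29.4, 43.6 and 83.7, and Olig2 and Gja1 fell by 1.55 and 0.82 (limma adjusted p = 0.000452, 0.000207 and 0.00679). The remaining called members were Cspg4, which was higher (0.94), and Pdgfra, which was lower (-1.41) and is also on the mesenchyme list. Both calls were lost without E11.5 embryo 1 (0.79 and -1.28) and in other fits.

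Meningeal and mesenchymal genes were lower in 10 of 14 cases and higher in 2, and here 1 library stood apart. Twist1, a mesenchymal factor, measured 116, 244 and 35.8 at E11.5 and 9.41, 7.98 and 8.72 at E14.5 (log2 change -3.39, limma adjusted p = 0.00120), and -4.13 without E11.5 embryo 3. Six2, a head mesenchyme factor and one of the 5 lower genes with the largest change, measured 334, 243 and 21.0 and then 5.88, 2.90 and 4.36 (-4.54, and -5.77 without that embryo). Col1a1, a fibrillar collagen, measured 1297, 1643 and 380 and then 322, 306 and 561, with overlapping groups. It missed the threshold (-1.29, limma adjusted p = 0.0534) and passed it without E11.5 embryo 3 (-1.94) or E14.5 embryo 5 (-1.57). The share of these differences that came from the amount of mesenchyme in the dissections was not tested. The higher members, Slc6a13 and Dcn, rose by 3.72 and 1.88, and both mark meninges in later brain.

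E11.5 embryo 3 also stood apart for Ubb and Polr2a, genes chosen after their values were seen. Ubb, a ubiquitin gene, measured 5631, 5136 and 81.6 at E11.5 and 149, 108 and 89.8 at E14.5 (-3.55, limma adjusted p = 0.0556, and -5.56 without that embryo). Polr2a, the large subunit of RNA polymerase II, measured 794, 810 and 157 and then 112, 101 and 139, with a log2 change of -1.99 (limma adjusted p = 0.0139) that was lost without E11.5 embryo 1 (-1.61) or E14.5 embryo 4 (-1.89).

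Liver transcripts marked 2 libraries. Alb, encoding serum albumin, measured 0 in all E11.5 controls and in E14.5 embryo 3, and 319 and 289 in E14.5 embryos 4 and 5. Serpina1e had the same pattern, with 176 and 220 in those embryos and 0 elsewhere. Both were called higher with overlapping groups (limma adjusted p = 0.0391 and 0.0412), and the calls were lost without any library except E14.5 embryo 3. Of 7 liver genes tested, 5 were called higher, but the number was 9 without E14.5 embryo 3 and 1 or 2 without any other single library. Ttr is on both the liver and the choroid plexus lists, and stood at 4899 in E14.5 embryo 3, where Alb was at 0.

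The Cep135 mutant cortices gave a second measurement of the same interval in other embryos. No library is shared with the controls, and the title prefixes are those of the controls. The 3′ reads of Cep135 do not check the genotype, since their mean was 303 normalized counts in E11.5 mutants and 227 in E14.5 mutants. The labels of E14.5 mutant embryo 6 disagree on its stage, and it was taken as E14.5 from its title. Without it, 5523 genes differed between the stages in the mutants, against 5362 with it, and the interaction described below called 0 genes. Of 13647 genes tested in the mutants, 5362 (39.3%) differed between the stages. Over the 13344 genes tested in both genotypes, 3689 were called in both, which is 73.9% of the control calls and 69.6% of the mutant calls, and 3684 of them had the same direction. Of the 4990 control calls, 97.9% had the same sign in the mutants. Across genes, which are not independent replicates, the log2 fold changes of the genotypes correlated with Pearson r of 0.862 and Spearman rho of 0.804. The estimates of some members were close in the 2 genotypes and those of others lay further apart, though no gene passed the interaction described below. Neurod2 changed by 4.36 in controls and 4.80 in mutants, Hmga2 by -4.73 and -4.26, Nfib by 2.94 and 2.76, and Ccnd1 by -2.90 in controls and -2.91 in mutants. Elmod1 changed by 4.10 in controls and 3.08 in mutants, and Rspo1 by -2.96 and -1.98. S phase genes were lower in 30 of 30 cases in both genotypes and mitosis genes in 34 and 31 of 34.

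**Figure D5:**
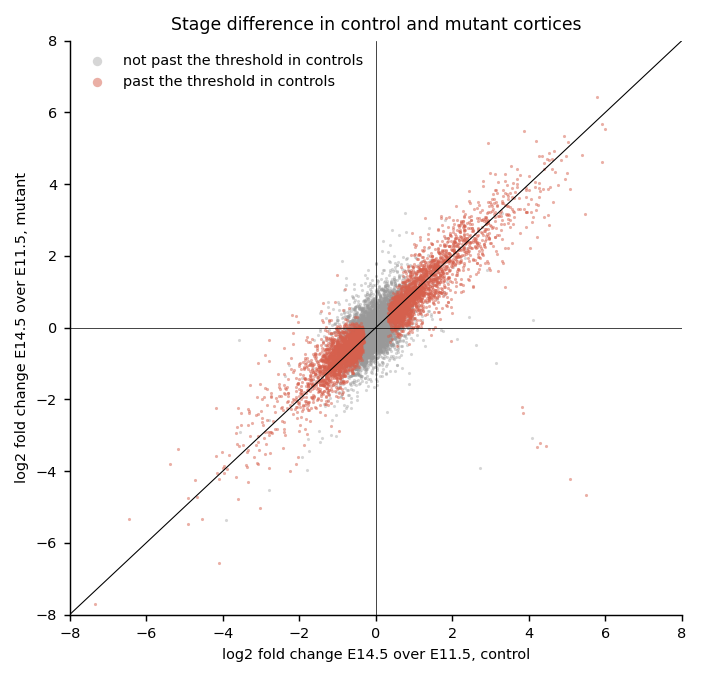
Log2 fold change of E14.5 over E11.5 in controls (horizontal) and in mutants (vertical) for the 13344 genes tested in both, with genes past the threshold in controls in red, the others in grey and a diagonal line of equality. Red genes lie along the diagonal, and 97.9% of them have the same sign on both axes.

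No gene passed the test of the difference itself, the interaction of stage and genotype in limma over 13650 genes, at an adjusted p under 0.05 (0.00%). At an unadjusted p under 0.05, 1070 genes passed, and the smallest adjusted p was 0.133. The smallest p values belonged to 9130024F11Rik, which changed by 5.47 in controls and 3.18 in mutants, and Mpped1, which changed by 2.27 and 1.19. With all 24 libraries in a single fit, 9130024F11Rik alone passed (limma adjusted p = 0.0334), and without E14.5 control embryo 3 only Apoa2, a liver gene, passed (limma adjusted p = 0.0183). Dll1 changed by -0.94 in controls and by -0.01 in mutants, and Cdk6, a G1 kinase, by 0.78 and 0.04, but the interaction did not pass for either. Of 6 liver genes tested in the mutants, 3 were lower at E14.5 and 1 was higher, against 5 higher and none lower of 7 in controls.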

How the data were processed

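RNA of the dorsal telencephalon of single embryos was sequenced by QuantSeq 3′ FWD. According to the methods and the submitters' processing notes, the authors checked reads with FastQC 0.11.7, aligned them to GRCm38 with TopHat2 2.0.10, which ran SAMtools 0.1.19 and Bowtie 1.0.0, and counted them per GENCODE vM20 gene with HTSeq 0.6.1 using strand. The deposited values are a signal, read counts divided by a size factor whose calculation is not given in the sources used here. Multi-mapped reads of near-identical genes may be lost or split by such counting, and reads from the 3′ end carry no information on isoforms.

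The table held 54658 genes, and 53994 were matched to GENCODE vM21 (GRCm38) by symbol for positions and 3′ UTRs. Genes averaging 10 or more across these libraries were tested with limma 3.58.1 (R 4.3.3, intensity trend, Benjamini-Hochberg adjustment, threshold 0.05) on log2(value + 1). The same fit was run in the mutants, and the interaction was fitted over 12 cortices. limma was the main test because the values are not counts, although the study itself used DESeq2. All values (100%) were whole multiples of what 1 read is worth, within a relative tolerance of 1e-06. In E11.5 embryo 1, 1 read is worth 1.01, too near 1 for the rule used here to tell such steps from rounding, so edgeR 4.0.16 and DESeq2 1.42.0 were run on the other 5 libraries, a choice made after seeing the data. The planned edgeR and DESeq2 fits on all 6 were not run. The limma step was tested on simulated data. Sequences and figures were handled with Python 3.11.15, pandas 2.3.3 and matplotlib 3.10.9.

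Named genes were the 10 higher and 10 lower with the smallest p, a log2 fold change of at least 1 in size and groups that do not overlap, leaving out unnamed predicted genes, Y-linked genes and Xist. To these were added the 5 largest changes in each direction at a mean of at least 100, up to 4 called members in each direction and the first 2 members of each list, Cep135 and Cdkn1a. Ubb, Polr2a, En1, 9130024F11Rik, Mpped1, Apoa2, the imprinted genes and a few list members given as counterparts of others were named after their values were seen. The libraries compared and the gene lists were chosen with earlier results of these data known. Some items are not reported here.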

Additional observations from a re-analysis of the deposited data

How the results depend on the processing

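The count of 5053 genes was recomputed under 19 alternatives and ranged from 3690 (without E14.5 embryo 4) to 5440 (without E14.5 embryo 5) with 1 library left out and from 3762 to 5286 in other fits at the same threshold. No call shared with an alternative changed direction. Genes lower at E14.5 numbered 1646 with 24 libraries in one fit and 1637 by DESeq2 on 5 libraries, against 2561, and calls higher were 47.6 to 58.4% of all calls across settings. At an adjusted p under 0.01, 3037 genes passed in controls and 3466 in mutants, and 2262 had a log2 fold change of at least 1 in size. The interaction called 1 gene with 24 libraries and 0 to 1 with 1 library left out. Of 4276 recomputed values of 227 named genes, 3988 kept their direction and side of the threshold, 255 lost the call, 33 gained one and 0 reversed. Of 608 list medians, 565 moved by less than the spread between replicates, 39 moved by more with the same sign, and 4 moved by more and changed sign.

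The others were as follows, and the cause was not tested. The G1 list median was -0.15 with a term for sex, and its range with 1 library left out began at -0.15. The oligodendrocyte and astrocyte list, at 0.0050 in the main fit, gave -1.12 at a mean of at least 50 and -0.43 without E14.5 embryo 4. Main medians not given above were -2.02 for erythroid cells, -1.18 for hem and choroid plexus, -1.39 for meninges and mesenchyme and 0.62 for tubulin isotypes. Without a filter, medians were 0.91 for deep layers, 1.02 for axon genes, -0.60 for hem and choroid plexus and -2.31 for erythroid cells. At a mean of at least 50 they were 0.91 for deep layers, -1.55 for early timing, 1.28 for late competence, 1.32 for axon genes, 0.036 for BAF, -1.77 for hem and choroid plexus and -1.72 for erythroid cells. A pseudocount of 5 gave 1.11 for upper layers, -1.54 for early timing, 2.13 for receptors and -1.72 for erythroid cells. The sex term gave 1.27 for axon genes. Removing Gm42418, mitochondrial and haemoglobin genes gave -2.32 for erythroid cells. On 5 libraries, edgeR and DESeq2 gave 1.29 and 1.30 for deep layers and -1.97 for early timing in both, and DESeq2 gave -2.25 for erythroid cells. With 1 library left out, medians ranged from 0.80 to 1.27 for deep-layer and subplate factors, 1.14 to 1.27 for upper-layer factors, -1.97 to -1.58 for early progenitor timing, 0.82 to 1.18 for late progenitor and glial competence, -0.15 to 0.10 for cyclin-dependent kinase regulators of G1, 1.05 to 1.27 for axon growth, guidance and adhesion, -2.23 to -1.73 for erythroid cells, -1.94 to -1.05 for meninges and mesenchyme, -0.43 to 0.055 for oligodendrocyte and astrocyte, 0.52 to 0.95 for tubulin isotypes and -0.76 to -0.58 for centriole and microcephaly genes.

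No paired analysis was possible because the stages came from different embryos and share only 1 replicate number, which names embryos of different stages. With 3 embryos a stage, and an exact permutation test unable to go below 0.1, p-values rest on the spread pooled by limma across genes. The sex term rests on 1 female embryo. Genes near 10 normalized counts are measured on few reads. Planned count tests on all 6 libraries were not run.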

Other observations

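Among imprinted genes, 5 that were picked after their values were seen were lower at E14.5, and no list of imprinted genes was counted or tested. Dlk1 went from 1715, 690 and 1296 to 208, 213 and 144 (log2 change -2.63, limma adjusted p = 0.000121) and Mest from 2116, 1957 and 1939 to 525, 524 and 372 (-2.10, limma adjusted p = 7.95e-06). H19, Grb10 and Peg3 fell by 1.73, 1.36 and 0.83.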
